A study of Mus musculus with 11 samples.

Results

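The 9 genes H2afy, H2afy2, H3f3a, H3f3b, Hira, Ubn1, Cabin1, Asf1a and Daxx encode the histone variants MacroH2A and H3.3 or proteins that carry and deposit H3.3. They were chosen by name, with earlier results of these data known. They make up 9 of 22367 protein-coding genes and of 37273 genes in all in the GENCODE vM1 annotation of mouse build mm9. The question was how much tagged H3.3, tagged MacroH2A2 and native MacroH2A2 was found at their transcription start sites (TSSs), introns and surroundings, and how these values changed with induction time and cell type. All 9 were found in the annotation, and none lies in the 1% of 100 kb tiles with the most signal in uninduced cells.

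H3.3 is the H3 variant that is made and deposited outside DNA replication as well as during it. H3f3a and H3f3b encode the same H3.3 protein. The HIRA complex, with its subunits Hira, Ubn1 and Cabin1, deposits H3.3 at active genes, and Daxx deposits it with Atrx at repeats and telomeres. Asf1a hands H3 and H4 to the HIRA complex and to other chaperones. MacroH2A is an H2A variant with a large C-terminal macro domain, best known from the inactive X chromosome. H2afy encodes MacroH2A1, in splice forms that differ by mutually exclusive exons, and H2afy2 encodes MacroH2A2.

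The 11 ChIP-Seq libraries come from mouse cells of the strain labelled 129 X C57bl/6, with 1 library per condition. HA-H3.3 was precipitated with an HA antibody from ES cells after 3 and 6 hours of 2 μg/ml doxycycline (Dox), and HA-MacroH2A2 (HA-Macro) from ES cells without Dox and at 3, 6 and 12 hours. HA-Macro was also precipitated from embryonic fibroblasts (MEFs) at 3, 6 and 12 hours. Native MacroH2A2 was precipitated with an antibody to it from cells labelled as parental ES cells and wild type MEFs without treatment, and each of these libraries combines 2 replicates. The ES lines derive from KH2 cells, which carry the reverse tetracycline transactivator M2rtTA at ROSA26, and the tagged cDNA sits under a Tet operator at Col1a1, in addition to the endogenous genes. The HA-Macro MEFs came from mid-gestation embryos made by injecting the HA-Macro ES cells into blastocysts, with host cells removed by puromycin, and were induced at passage 2. ES cells had grown on feeder MEFs, which were depleted by plating for 45 min before induction, so that some feeder DNA may remain.

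A library held between 6488112 intervals (3 hours of HA-H3.3) and 20541627 intervals (12 hours of HA-Macro in MEFs). HA-Macro intervals measured 150 bp and 3.27% to 6.00% of them repeated another, whereas those of the other libraries measured 400 bp and 0.462% to 0.693% repeated another, apart from 0 to 66 intervals of another length per library. Levels are therefore compared between libraries of one kind. The HA-Macro ES library at 3 hours stood apart in its share of distinct intervals on chromosome Y, at 0.112% against 0.0219% to 0.0244% in the other HA-Macro ES libraries. The share was 0.102% and 0.0673% in HA-H3.3 at 3 and 6 hours and 0.100% and 0.0423% with the antibody to MacroH2A2 in ES cells and MEFs, and its part in the differences between those libraries was not tested. Most changes from 3 to 12 hours in ES cells are followed by the change from 6 to 12 hours. Because every condition has 1 library, no difference was tested and no p-value is given. Brackets hold exact 95% intervals, which cover counting error only, since reads without molecular identifiers are not independent molecules and the spread between cultures was not measured.

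A TSS level is the number of distinct intervals with their midpoint within 600 bp of the TSS, per 1000000 distinct intervals of the library (RPM, also the scale of the plots). Levels are relative to the library total, so a level can change between libraries while the amount bound there does not. The window is equally long in every gene, so that TSS levels may be compared between genes of one library. A gene was called higher or lower when its scaled count changed by at least 1.5-fold, among protein-coding genes with at least 20 intervals over the 2 libraries. The share of all such genes that was called is given as the background.

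At the TSSs used here, Hira had the highest level of the 9 genes in HA-H3.3 ES cells at 6 hours and in HA-Macro ES cells at 3 hours, and H3f3b the lowest or second lowest. At the RefSeq starts, given below, H3f3b was the highest in HA-Macro ES cells at 3 hours. It had 2.65 (1.93 to 3.56) RPM there against 2.23 (1.57 to 3.08) for Hira. The H2afy gene (ENSMUSG00000015937.8, chr13:56174980-56237722, minus strand) held 30 and 43 intervals at its TSS in HA-H3.3 at 3 and 6 hours, or 4.65 (3.14 to 6.64) and 4.04 (2.92 to 5.44) RPM. Among HA-Macro libraries of ES cells it held 12, 25, 21 and 16 intervals without Dox and at 3, 6 and 12 hours, or 1.02, 1.51, 1.25 and 0.904 RPM. In HA-Macro MEFs it held 8, 8 and 3, or 0.740, 0.761 and 0.151 RPM, and the antibody to MacroH2A2 gave 17 in ES cells and 11 in MEFs (2.00 and 0.742 RPM). H2afy was thus at the 98.3th percentile of protein-coding genes in HA-H3.3 at 3 hours and at the 6.21th in HA-Macro MEFs at 12 hours. Its H3.3 level at 3 hours includes reads that end in the untranslated first exon, described below with its coding exons.

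H2afy2 (ENSMUSG00000020086.5, chr10:61201391-61246895, minus strand), the endogenous gene for MacroH2A2, had TSS levels of 1.71 and 3.57 RPM in HA-H3.3 at 3 and 6 hours, from 11 and 38 intervals. Antibody to MacroH2A2 gave 16 intervals in ES cells and 5 in MEFs at this TSS, or 1.88 (1.08 to 3.06) and 0.337 (0.109 to 0.787) RPM. HA-Macro gave 0.592 in uninduced ES cells and 0.603, 1.07 and 0.396 after 3, 6 and 12 hours, and in HA-Macro MEFs it was 0.370, 0.571 and 0.453. H2afy2 is the member with the lowest level in HA-Macro ES cells at 3 hours and at 12 hours, and its counting intervals there overlap those of H3f3b.

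H3f3a and H3f3b encode one protein but differed in the HA-H3.3 level at the TSSs used here, a difference that depends on the start chosen, as given below. H3f3a (ENSMUSG00000060743.6, chr1:182730963-182744074, minus strand) had 23 and 70 intervals in HA-H3.3 at 3 and 6 hours, or 3.57 and 6.57 RPM, and H3f3b (ENSMUSG00000016559.8, chr11:115883226-115889276, minus strand) 7 and 17, or 1.09 and 1.60 RPM. For HA-Macro, uninduced ES cells had 12 H3f3a intervals and those at 3, 6 and 12 hours had 27, 16 and 11 (1.02, 1.63, 0.955 and 0.622 RPM), and in MEFs 3, 8 and 14 (0.277, 0.761 and 0.705). H3f3b had 4, 13, 11 and 11 intervals in HA-Macro ES cells (0.338, 0.784, 0.657 and 0.622 RPM) and 2, 3 and 13 in MEFs (0.185, 0.285 and 0.654). The antibody to MacroH2A2 gave H3f3a 1.29 RPM in ES cells and 0.472 in MEFs, and H3f3b 0.470 and 0.472. H3f3a stood above H3f3b in HA-H3.3 at 6 hours beyond counting error, at 6.57 (5.13 to 8.31) against 1.60 (0.930 to 2.56), whereas in HA-Macro ES cells at 12 hours both held 11 intervals.

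The first coding exons of both genes are printed to show how far reads from them can be told apart, with capitals at the 25 of 128 bases at which they differ. Over the 408 coding bases 313 were identical (76.7%), 81 of the 95 differences fell on the third codon position, and the longest identical run was 23 bases.
H3f3a, first coding exon, chr1:182741930-182742057, minus strand: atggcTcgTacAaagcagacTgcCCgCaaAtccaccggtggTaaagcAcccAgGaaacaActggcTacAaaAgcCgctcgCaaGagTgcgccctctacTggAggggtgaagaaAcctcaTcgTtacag
H3f3b, first coding exon, chr11:115885196-115885323, minus strand: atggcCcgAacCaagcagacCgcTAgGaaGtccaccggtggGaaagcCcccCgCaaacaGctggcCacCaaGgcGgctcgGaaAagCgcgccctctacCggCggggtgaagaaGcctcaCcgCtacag

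The annotated TSS of H3f3b with the longest coding sequence, that of transcript H3f3b-001, is not the one that RefSeq gives. The RefSeq start, which is also that of H3f3b-201, lies 3458 bp downstream at chr11:115885818. Around it HA-H3.3 held 16 and 52 intervals at 3 and 6 hours, or 2.48 (1.42 to 4.03) and 4.88 (3.65 to 6.41) RPM. ES cells with HA-Macro held 15 intervals there before induction and 44, 18 and 16 after 3, 6 and 12 hours (1.27, 2.65, 1.07 and 0.904 RPM), and HA-Macro MEFs 7, 3 and 8. The antibody to MacroH2A2 gave 8 intervals there in ES cells and 7 in MEFs, or 0.941 (0.406 to 1.85) and 0.472 (0.190 to 0.973) RPM. The low values above thus belong to the start of H3f3b-001. The RefSeq start of H3f3a lies 338 bp downstream of the TSS used here and held 19 and 44 intervals of HA-H3.3, or 2.95 (1.77 to 4.60) and 4.13 (3.00 to 5.55) RPM. At these starts the intervals of the 2 H3.3 genes overlapped at both times, and H3f3b had the larger value at 6 hours. In bins of 500 bp, HA-H3.3 at 6 hours was highest from 3500 to 4000 bp downstream of the start of H3f3b-001, with 3.19 RPM, and so was HA-Macro in ES cells at 3 hours, with 2.23. Further HA-H3.3 signal lay upstream of the gene, at 2.35 RPM from 3500 to 3000 bp before the start of H3f3b-001.

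**Figure D1:**
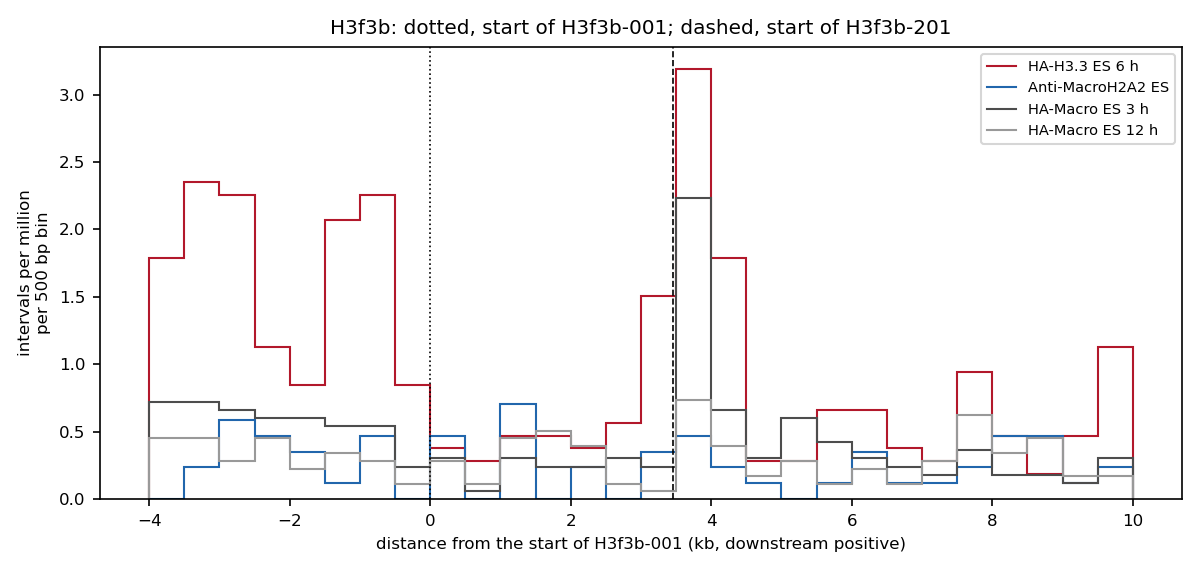
Distinct intervals in 500 bp bins in RPM (vertical axis) by distance from the start of H3f3b-001 in kb (horizontal axis), in 4 ES libraries shown as stepped lines. The highest bin of HA-H3.3 at 6 hours (3.19 RPM) and of HA-Macro at 3 hours (2.23) lies just past the dashed line, the start of H3f3b-201, and not at the dotted line, the start of H3f3b-001.

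Promoter sequence differs between the members in its CG content. The 250 bases before the TSS held 39 CG dinucleotides in H3f3a, 31 in Asf1a and Ubn1, 29 in Daxx, 21 in Hira, 18 in H2afy and 16 in H2afy2 and Cabin1, and the same length before the start of H3f3b-201 held 19. The median over 22362 protein-coding genes was 9, and 92.5% of them held at least 1. The sequence before Asf1a is printed as that of a member with many CG, in capitals (the same on both strands), which had the largest ratio of HA-H3.3 at 6 over 3 hours among the members, close to that of Hira. It overlaps no annotated exon, and 6.5% of protein-coding genes held as many CG or more.
Asf1a, chr10:53316517-53316766, plus strand: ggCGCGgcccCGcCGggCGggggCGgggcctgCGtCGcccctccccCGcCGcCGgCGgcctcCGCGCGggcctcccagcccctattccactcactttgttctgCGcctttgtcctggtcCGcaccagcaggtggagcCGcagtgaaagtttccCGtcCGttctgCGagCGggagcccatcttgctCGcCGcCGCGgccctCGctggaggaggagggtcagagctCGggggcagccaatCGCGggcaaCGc

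Among the subunits of the HIRA complex, Hira (ENSMUSG00000022702.9, chr16:18877130-18970402, plus strand), the histone-binding scaffold, held 25 and 110 intervals in HA-H3.3 at 3 and 6 hours, or 3.88 (2.51 to 5.72) and 10.3 (8.49 to 12.5) RPM. ES cells with HA-Macro held 14 before induction and 46, 29 and 14 after 3, 6 and 12 hours (1.18, 2.77, 1.73 and 0.791 RPM), and HA-Macro MEFs 5, 5 and 11 (0.462, 0.476 and 0.554), and native MacroH2A2 stood at 1.53 RPM in ES cells and 0.540 in MEFs. The level in HA-H3.3 at 6 hours was at the 99.8th percentile of protein-coding genes, and that in HA-Macro ES cells at 3 hours at the 98.1th. Ubn1 (ENSMUSG00000039473.6, chr16:5050161-5086378, plus strand), the subunit that contacts H3.3, had 2.64 and 4.70 RPM in HA-H3.3, and 0.930, 1.93, 1.13 and 0.735 with HA-Macro in ES cells before and after 3, 6 and 12 hours of Dox. It had the highest level of the 9 genes with the antibody to MacroH2A2, at 2.70 (1.71 to 4.06) in ES cells and 1.15 (0.668 to 1.84) in MEFs. Cabin1 (ENSMUSG00000020196.8, chr10:75108855-75227102, minus strand), the large subunit, had 1.71 and 3.29 RPM in HA-H3.3, and HA-Macro gave 0.930 in uninduced ES cells and 1.81, 0.597 and 0.735 after 3, 6 and 12 hours. In HA-Macro MEFs Ubn1 had 10, 9 and 10 intervals and Cabin1 3, 9 and 11 at the 3 times, counts whose intervals overlap. Native MacroH2A2 at Cabin1 stood at 1.76 RPM in ES cells and 0.607 in MEFs.

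Asf1a (ENSMUSG00000019857.6, chr10:53316767-53329019, plus strand) had 13 and 61 intervals in HA-H3.3 at 3 and 6 hours, or 2.02 (1.07 to 3.45) and 5.73 (4.38 to 7.36) RPM, and HA-Macro gave 4 intervals in uninduced ES cells and 23, 20 and 11 after 3, 6 and 12 hours. Daxx (ENSMUSG00000002307.9, chr17:34046359-34052534, plus strand) had 29 and 72 intervals in HA-H3.3, or 4.50 and 6.76 RPM, and HA-Macro gave 7, 36, 27 and 14 in the same order. In HA-Macro MEFs Asf1a had 4, 4 and 10 intervals and Daxx 8, 8 and 11. With the antibody to MacroH2A2 Asf1a had 1.76 RPM in ES cells and 0.674 in MEFs, and Daxx 1.65 and 0.674. Asf1a thus had a higher HA-H3.3 level at 6 than at 3 hours by counting intervals that do not overlap, whereas those of Daxx overlapped. In HA-H3.3 at 6 hours the order from the highest at the TSSs used here was Hira, Daxx, H3f3a, Asf1a, Ubn1, H2afy, H2afy2, Cabin1 and H3f3b. The intervals of neighbours overlapped throughout, though only at their edges for Hira (at least 8.49 RPM) and Daxx (at most 8.52), and by little for Cabin1 (at least 2.29) and H3f3b (at most 2.56). The order depends on the start. At the RefSeq starts H3f3b, at 4.88, stood above Ubn1, H2afy, H3f3a, H2afy2 and Cabin1, with overlapping intervals. The medians of all protein-coding genes were 1.24 and 1.78 RPM in HA-H3.3 at 3 and 6 hours, 0.905 in HA-Macro ES cells at 3 hours and 0.622 at 12 hours, and 0.453 in HA-Macro MEFs at 12 hours.

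**Figure D2:**
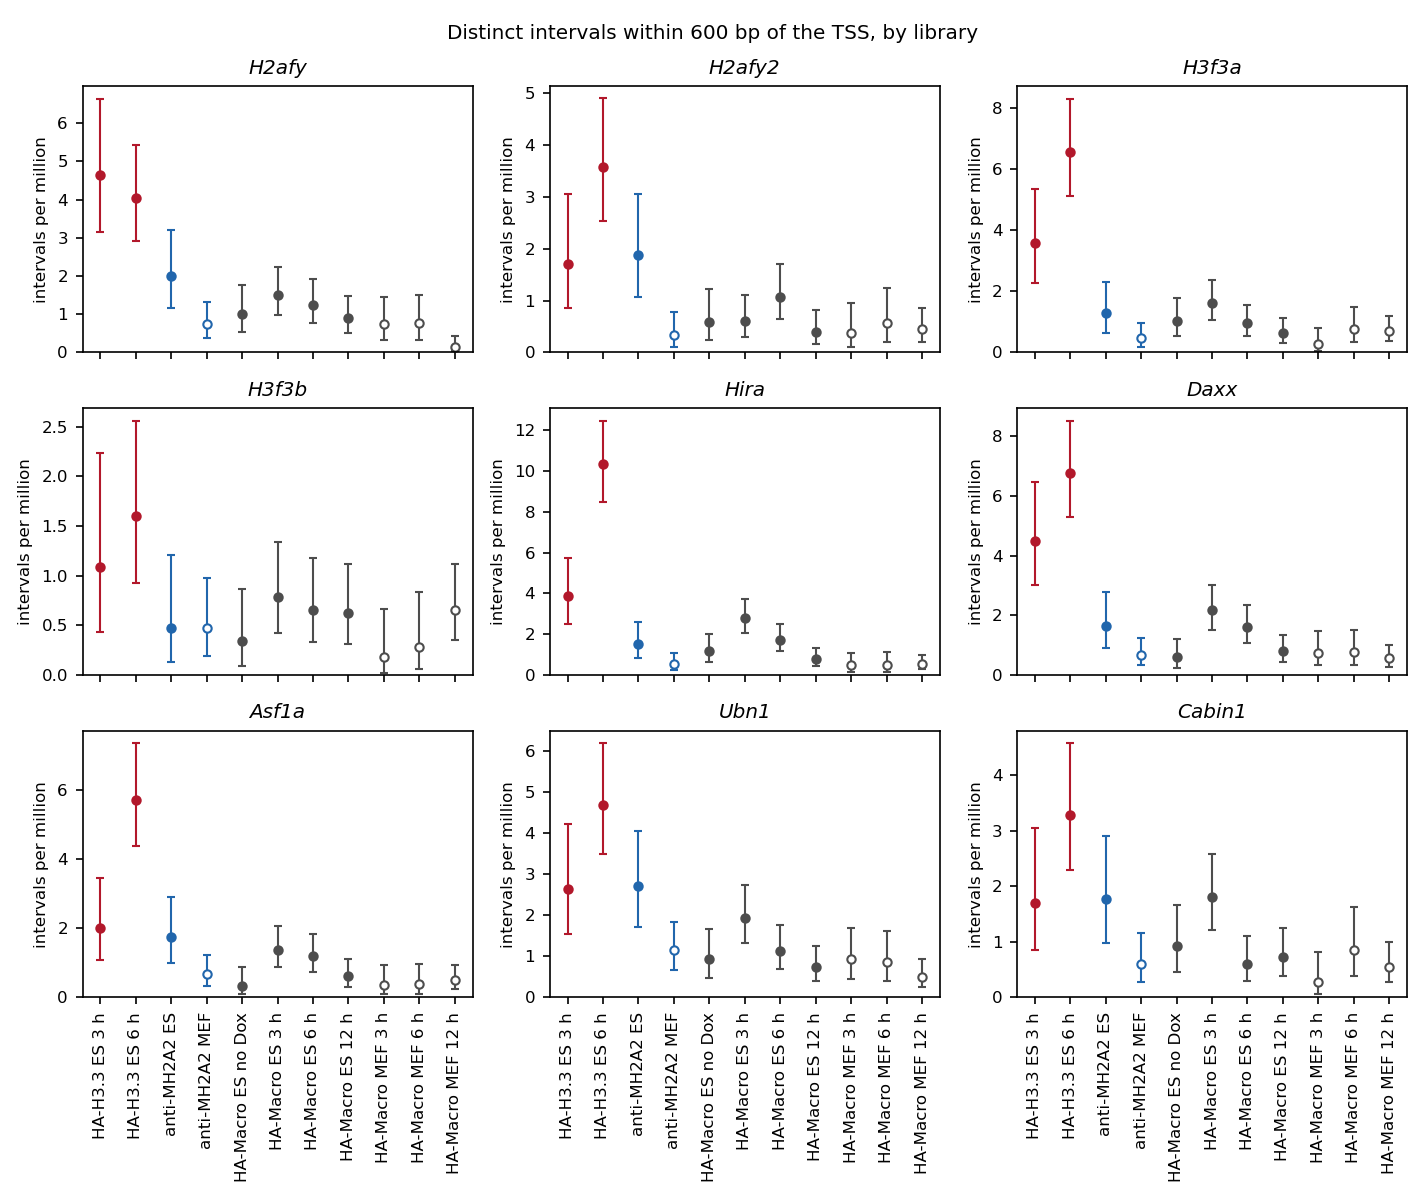
TSS level of each of the 9 genes (vertical axes, RPM within 600 bp of the TSS) in the 11 libraries (horizontal axes), with exact 95% counting intervals as bars, HA-H3.3 in red, anti-MacroH2A2 in blue, HA-Macro in grey and open symbols for MEFs. Hira reaches 10.3 in HA-H3.3 at 6 hours, and the HA-Macro values in ES cells are highest at 3 hours for Hira (2.77) and Daxx (2.17).

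In HA-Macro ES cells 7 of the 8 members with enough TSS intervals were called lower at 12 than at 3 hours, against a background of 54.9% of protein-coding genes. The median log2 ratio was -1.34 against -0.68 over all of them, of which 21.7% had a ratio above 1. Hira had the smallest ratio, 0.285 (0.145 to 0.528), which lay at the 5.9th percentile, followed by Daxx at 0.364 (0.182 to 0.692), Ubn1 at 0.381 (0.183 to 0.746), H3f3a at 0.382 (0.171 to 0.795), Cabin1 at 0.406 (0.194 to 0.802) and Asf1a at 0.448 (0.197 to 0.957). These 6 intervals lay below 1, and the share of all genes with such intervals was not counted. H2afy was called at 0.600 with an interval that reached 1.17, H3f3b was not called at 0.793, and H2afy2 had too few intervals (7 and 10). In windows of 300 bp either side fewer members were called, and the ratio of H2afy turned just above 1, as given in the closing section. At the RefSeq start H3f3b was at 0.341 (0.179 to 0.616), but its levels at 6 and 12 hours, 1.07 (0.637 to 1.70) and 0.904 (0.517 to 1.47) RPM, had overlapping intervals, so that this call rested on the 3 hour library. At their own RefSeq starts H3f3a was at 0.535 with an interval that reached 1.14, and H2afy2, with 19 and 10 intervals at 3 and 12 hours, was called at 0.493 with an interval that reached 1.11. H2afy2 held 27 intervals there at 6 hours, or 1.61 (1.06 to 2.34) RPM, against 0.565 (0.271 to 1.04) at 12 hours. With each gene scaled to its own flanks, Daxx at 0.713 and Asf1a at 0.848 were not called. The flanks are the 20 kb on either side, where neighbouring genes and promoters are counted too, so this scale is not a pure local background.

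With the 6 hour library as the early point, 6 of 9 members were lower at the TSS (background 30.9%), with a median log2 ratio of -0.63 against -0.30. The intervals of H2afy2, Hira and Daxx lay below 1, at 0.368, 0.457 and 0.491, whereas Cabin1 stood at 1.23. At the TSSs used here, the lower signal at 12 hours was thus seen against both early libraries for Hira and Daxx beyond counting error. For Cabin1 it was seen against the 3 hour library alone. At the gene 5′ end of Hira the 6 and 12 hour libraries held 27 and 15 intervals, or 1.61 and 0.848 RPM. At its RefSeq start they held 20 and 12, or 1.19 and 0.678 RPM. Ratio intervals from 6 to 12 hours were not computed at those starts, so the result for Hira may depend on the start.

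Except in Daxx, introns hold more intervals than the TSS windows and so give narrower intervals. The short introns of Daxx held 60 intervals in HA-H3.3 at 6 hours, where its TSS window held 72. Between 3 and 12 hours in HA-Macro ES cells 6 of 9 members were lower in introns (background 36%), with a median log2 ratio of -0.87 against -0.22. Asf1a fell from 138 to 52 intervals, a ratio of 0.353 (0.252 to 0.489) at the 2.15th percentile, Hira from 1145 to 613, 0.502 (0.454 to 0.554), and Cabin1 from 1757 to 1023, 0.546 (0.505 to 0.590). H3f3a was at 0.500 (0.370 to 0.670), Ubn1 at 0.546 (0.455 to 0.654) and Daxx at 0.594 (0.349 to 0.995), while H2afy at 0.675 was not called. The introns of H2afy2, at 1.12 (0.983 to 1.29), and of H3f3b, at 1.24 (0.685 to 2.26), had ratios above 1. With each gene scaled to its own flanks the direction of Daxx turned, to 1.16, that of H2afy2 turned to 0.818, and Asf1a at 0.668 and Ubn1 at 0.678 were not called.

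The calls in introns rested on the 3 hour library. Scaled to length, the introns of Hira had 0.450 RPM per kb without Dox, 0.786 at 3 hours, 0.469 at 6 and 0.394 at 12, and those of Cabin1 0.431, 0.963, 0.516 and 0.525. From 6 to 12 hours none of 9 members was called in introns (background 3.65% lower and 1.92% higher), and ratios ran from 0.769 for Daxx to 1.06 for H3f3a. The intervals of Hira, at 0.841 (0.753 to 0.939), and H2afy2, at 0.870 (0.768 to 0.986), still lay below 1. The 3 hour library is also the one with the raised share of chromosome Y, and the part of its DNA content in these values was not tested.

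In HA-Macro MEFs only Ubn1 had enough TSS intervals for the same comparison, with 10 at each time and a ratio of 0.544 (0.203 to 1.46), which was called lower (background 18.9%). H2afy, with 8 and 3 intervals, had a ratio of 0.204 (0.0349 to 0.850) but fell short of the minimum. In introns 1 of 9 members was lower (background 2.99%), Daxx with 12 and 10 intervals and a ratio of 0.453 (0.175 to 1.15). The other 8 ranged from 0.896 for Hira to 1.18 (1.04 to 1.34) for Cabin1, whose 350 and 759 intervals at 3 and 12 hours gave the only interval above 1 among the 9.

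**Figure D3:**
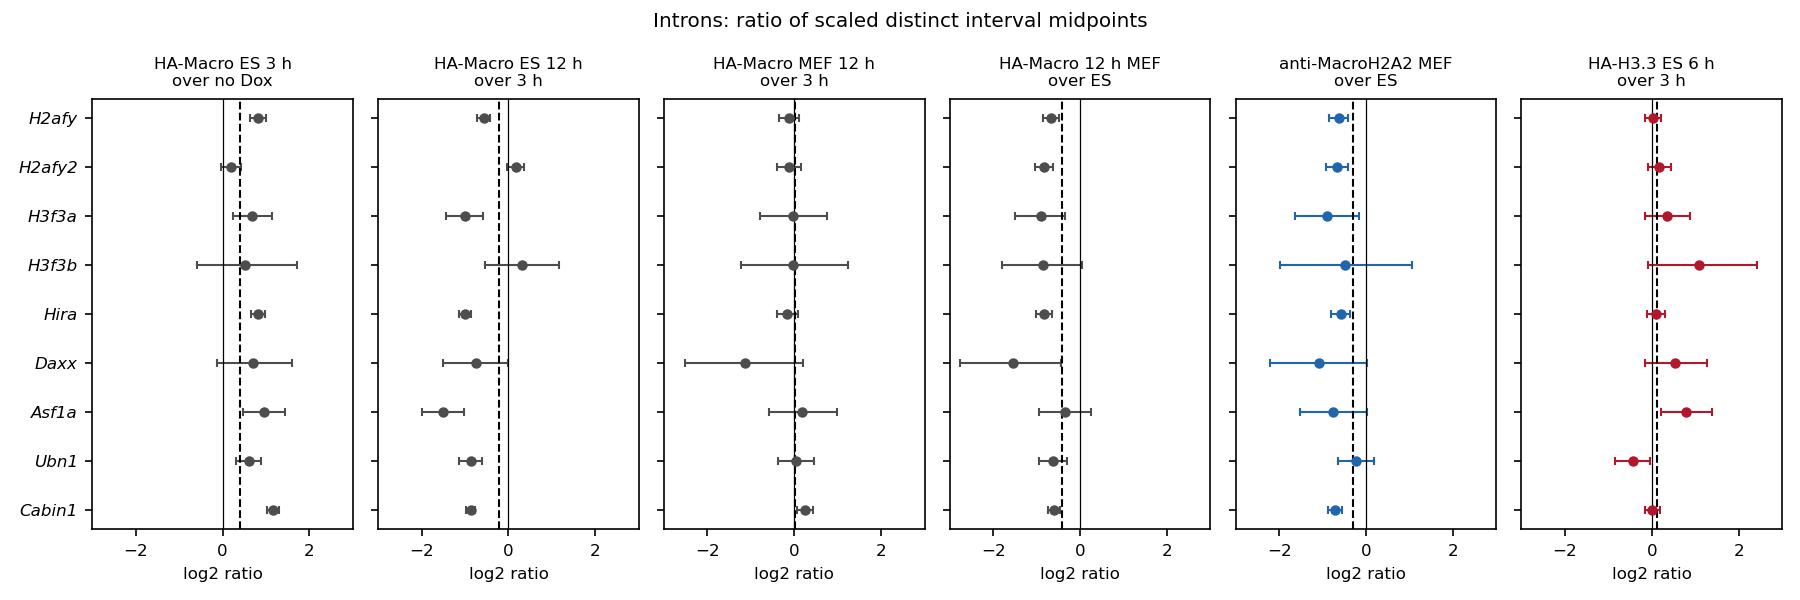
Log2 ratios of intron signal (horizontal axes) for the 9 genes (rows) in 6 comparisons (panels), with exact 95% counting intervals as bars, the solid line at 0 and the dashed line at the median of protein-coding genes. Hira, Asf1a, Ubn1 and Cabin1 lie left of the dashed line for HA-Macro ES cells at 12 over 3 hours, and H2afy2 and H3f3b right of 0 with bars that reach it.

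Against uninduced ES cells, the 3 hour library had more TSS signal in 6 of 7 members with enough intervals (background 67.6%, median log2 ratio 1.05 against 0.93). Asf1a had the largest ratio, from 4 and 23 intervals, 4.10 (1.40 to 16.3), followed by Daxx at 3.67 (1.61 to 9.76), Hira at 2.34 (1.27 to 4.61) and Ubn1 at 2.07 (1.02 to 4.56). In introns 7 of 9 were higher (background 38.8%, median 0.70 against 0.39), with Cabin1 at 2.23 (2.03 to 2.46) at the 91.7th percentile. At the RefSeq starts H3f3a was not called, at 1.07 (0.519 to 2.27) in place of 1.60, and H3f3b, which had too few intervals at the start of H3f3b-001, was called at 2.09 (1.14 to 4.05). With each gene scaled to its own flanks, Daxx was not called at the TSS, at 1.39, and turned to 0.615 in introns, where H2afy and H3f3a were called higher and Daxx lower. When 6 hours replaced 3 hours, 3 of 8 members were higher and 1 lower at the TSS (background 47.8% and 4.4%), and 1 of 9 higher in introns (background 16.4%). Daxx and Asf1a stayed above the uninduced cells at the TSS beyond counting error, at 2.72 and 3.53, whereas Cabin1 was lower, at 0.641. The TSSs of Daxx and Asf1a thus differed from uninduced cells at both times relative to the library total, with uninduced cells, which carry the tagged cDNA, as the control. A TSS ratio above 1 was common, with 88.9% of tested protein-coding genes at 3 hours over no Dox and 79.8% at 6 hours.

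Relative to the library total, native MacroH2A2 was lower in MEFs than in ES cells at the TSS of all 7 members with enough intervals (background 65.8%), with a median log2 ratio of -1.43 against -0.91. All 7 intervals lay below 1, and the share of all genes with such intervals was not counted. The paper states that normalization overstates promoter loss in MEFs, which hold more MacroH2A2 signal away from promoters. H2afy2 itself was at 0.179 (0.0514 to 0.512), the 1.22th percentile, and the other 6 lay between 0.344 for Cabin1 and 0.424 for Ubn1. At its RefSeq start, 283 bp downstream, H2afy2 was at 0.394 (0.165 to 0.905), within the range of the others, so that its place below them depends on the start. Hira, with 4 and 10 intervals at its RefSeq start, fell short of the minimum there. H3f3a (7 and 11 intervals in MEFs and ES cells) and H3f3b (7 and 4) fell short of the minimum. In introns 6 of 8 members were lower (background 24.5%, median -0.69 against -0.31), with H2afy at 0.646 (0.557 to 0.749), H2afy2 at 0.629 (0.528 to 0.751) and Cabin1 at 0.612 (0.546 to 0.685). Hira at 0.667 (0.573 to 0.778) was just short of the call, and Ubn1 at 0.850 had an interval that included 1.

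HA-Macro at 12 hours gave no call at the TSS between MEFs and ES cells for the 7 members with enough intervals (background 38% lower and 17.9% higher), with ratios from 0.685 for Ubn1 to 1.13 for H3f3a. H2afy was short of the minimum with 3 intervals in MEFs and 16 in ES cells, a ratio of 0.167 (0.0312 to 0.583). At the RefSeq starts H2afy, at 0.223 (0.0542 to 0.690), and H3f3b, at 0.445 (0.165 to 1.10), were called lower. The introns were lower in MEFs for 8 of 9 members (background 32.4%), with a median log2 ratio of -0.83 against -0.41. Daxx, at 0.343 (0.147 to 0.734), lay at the 0.636th percentile with 10 and 26 intervals, and H2afy2, from 306 and 487, was at 0.560 (0.484 to 0.647). Asf1a was the exception, at 0.788 (0.518 to 1.19). Relative to the library total, the introns of H2afy, H2afy2, H3f3a, Hira and Cabin1 had intervals below 1 with either antibody. The share of all genes with such intervals was not counted. Of all tested protein-coding genes, 24.3% had an intron ratio above 1 with the antibody to MacroH2A2 and 22.6% with HA-Macro. Relative to the flanks of each gene, Hira turned to 1.22 and Cabin1 to 1.00 with the antibody to MacroH2A2, and the calls fell to 1 member, H3f3a, with that antibody and to 2, H3f3a and Daxx, for HA-Macro. A difference in cell type cannot be told apart here from one in library or culture, since each of these comparisons rests on 1 library per cell type.

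HA-H3.3 was higher at 6 than at 3 hours at the TSS of 7 of 9 members (background 55.3%), with a median log2 ratio of 0.88 against 0.66. Of all tested protein-coding genes 87.1% had a ratio above 1, and the share with intervals above 1 was not counted. Asf1a, at 2.84 (1.54 to 5.64), and Hira, at 2.66 (1.71 to 4.30), lay at the 93.2th and 91.1th percentiles. H2afy2 at 2.09 (1.05 to 4.54), H3f3a at 1.84 (1.14 to 3.09) and Ubn1 at 1.78 (1.01 to 3.29) also had intervals above 1, whereas those of Cabin1 at 1.93 and Daxx at 1.50 included it. The calls of H3f3a and Daxx ended at other starts, with H3f3a at 1.40 (0.802 to 2.54) at its RefSeq start and Daxx at 1.45 (0.939 to 2.28) at the gene 5′ end. With each gene scaled to its own flanks, Daxx turned to 0.915, H3f3a at 1.20 and Cabin1 at 1.02 were not called, and H2afy at 0.588 was called lower. H3f3b was not called at 1.47, but rose at its RefSeq start, at 1.97 (1.11 to 3.69). H2afy, at 0.868 (0.532 to 1.43), was the 1 member with a ratio below 1, at the 7.37th percentile. Around the 5′ end of the H2afy gene, 730 bp upstream of the TSS used here, HA-H3.3 went from 6 to 28 intervals, a ratio of 2.83 (1.15 to 8.35). In introns 2 of 9 members were higher (background 16.7%, median 0.18 against 0.11), H3f3b at 2.12 (0.941 to 5.38) and Asf1a at 1.73 (1.17 to 2.62). Ubn1, at 0.737 (0.558 to 0.974), was not called but had its interval below 1. Relative to their own flanks neither H3f3b nor Asf1a was called, at 1.49 and 1.38, and Cabin1 was called lower, at 0.534.

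The 20 kb upstream and downstream of each gene were counted as well. Only the TSS window of the gene itself was left out of them, so they can hold neighbouring genes and promoters. H2afy2 was the only member with more HA-Macro there at 12 than at 3 hours in ES cells by at least 1.5-fold, at 1.85 (1.51 to 2.27) and the 98.3th percentile (background 11.9%), and H2afy was just short of the call at 1.47 (1.21 to 1.80). The upstream region of H2afy2 held 0.301 RPM per kb without Dox, 0.451 at 3 hours, 0.785 at 6 and 0.833 at 12, so that 6 and 12 hours lay within 1.06 (0.894 to 1.26) of each other. In HA-Macro MEFs the same region had 0.663, 0.539 and 0.716 at the 3 times. Upstream of Daxx, H3f3b, Ubn1 and Asf1a the signal was lower at 12 than at 3 hours in ES cells, with ratios of 0.464, 0.562, 0.561 and 0.579 (background 14.7%), and from 6 to 12 hours none of 9 members was called (background 0.318% higher and 0.573% lower), and only the interval of Daxx, 0.724 (0.582 to 0.901), stayed below 1. The upstream intervals of H2afy2 and H2afy thus lay above 1 between 3 and 12 hours, whereas no member had one above 1 from 6 to 12 hours. The downstream ratios of H2afy2 and H2afy from 3 to 12 hours, 1.00 (0.816 to 1.23) and 1.22, had intervals that included 1. Downstream, 2 of 9 members, Asf1a at 0.492 (0.389 to 0.620) and Daxx at 0.538 (0.465 to 0.622), were lower at 12 than at 3 hours (background 16.7%), and from 6 to 12 hours their ratios were 0.811 and 0.852. H3f3a went the other way downstream, at 1.43 (1.16 to 1.77) from 3 to 12 hours, and was not called. Its downstream level was 9.05 RPM at 3 hours and highest at 6 hours, with 13.0 RPM, among the HA-Macro libraries. From 6 to 12 hours no member had a downstream interval above 1. HA-H3.3 was higher at 6 than at 3 hours upstream of H2afy, H3f3b, Daxx and Cabin1 (background 18.1%), with Cabin1 at 2.15 (1.68 to 2.78) and Daxx at 2.09 (1.70 to 2.60).

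Coding exons were examined because the cell lines carry cDNAs of histone variants, whose reads fall on exons and not on introns. A pattern in H2afy was noticed after these values were seen, and is described without a test. For it the 2 ends of each interval were counted, each as 0.5 intervals, because a read lies at an end of its interval and the midpoint of a 400 bp interval falls outside any exon of 90 to 198 bp in which it ends. In HA-H3.3 at 3 hours the coding exons of H2afy held 137 interval ends and its introns 715, so that coding exons had 8.80 (7.28 to 10.6) times the density of introns. This ranked second of 1781 genes with enough ends, after Mid1 at 9.84 and before Rbm15 at 7.70, where the median was 1.59. At 6 hours the ends were 97 and 1328, a ratio of 3.36 (2.70 to 4.13) at rank 205 of 4323. In the other 9 libraries the ratio was 0.984 to 2.04, HA-Macro and anti-MacroH2A2 alike.

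The pattern was seen in 8 of the 9 coding exons. At 3 hours exons 1 to 9, in the direction of transcription, held 27, 16, 18, 17, 0, 9, 5, 22 and 23 ends, where the intron density would give between 1.16 and 2.55 each. At 6 hours they held 22, 6, 18, 8, 6, 6, 5, 11 and 15. The median of exon over intron density over these exons was 9.75 at 3 hours, the highest of 11197 genes with at least 5 coding exons of 60 bp or more, followed by Sim2 at 9.38, with an all-gene median of 1.02. Sim2 was the highest other gene in 9 libraries, HA-Macro included, so that its value does not set HA-H3.3 apart. At 6 hours H2afy had 2.75 and rank 65 of 11361, and in the other libraries 0.892 to 1.99.

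Exons 2, 5 and 6 of H2afy are printed because 5 and 6 are the mutually exclusive pair and 2 is an exon of both forms. Capitals mark bases at which an interval of HA-H3.3 at 3 hours begins or ends. Exon 5 is in transcript H2afy-001 alone and exon 6 in H2afy-002 alone.
H2afy exon 2, chr13:56206250-56206356, minus strand: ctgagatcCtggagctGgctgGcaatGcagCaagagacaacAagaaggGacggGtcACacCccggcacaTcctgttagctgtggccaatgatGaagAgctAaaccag
H2afy exon 5, chr13:56191119-56191218, minus strand: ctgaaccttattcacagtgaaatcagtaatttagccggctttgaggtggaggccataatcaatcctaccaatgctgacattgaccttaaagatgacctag
H2afy exon 6, chr13:56189613-56189703, minus strand: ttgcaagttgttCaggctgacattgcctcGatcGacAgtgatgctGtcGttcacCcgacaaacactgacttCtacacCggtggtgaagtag

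Exon 6 thus held 9 ends at 3 hours, or 7.67 (3.51 to 14.6) RPM per kb, and exon 5 held 0, which allows up to 2.86 RPM per kb. At 6 hours both held 6. Taken along transcript H2afy-002, the 1107 coding bases had 9.60 (8.06 to 11.3) RPM per kb of interval ends at 3 hours, 3.86 (3.11 to 4.74) at 6 hours and 0.455 to 1.23 in the other libraries. The introns had 1.00 and 1.12 at 3 and 6 hours, the 611 bp 3′ UTR 2.03 and 1.38, and the untranslated first exon of 286 bp, which lies in the TSS window, 6.51 (4.17 to 9.68) and 2.96. The excess over introns was thus larger in translated exons and the first exon than in the 3′ UTR.

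Within the coding exons, ends were scarce at the far edges, where the rest of the read would run into the intron. Of the 137 ends at 3 hours 7 (5.11%) pointed out of the exon from its last 30 bases, as did 6 of 97 (6.19%) at 6 hours, where the length of these edges would give 22.4%. The share in the other libraries was 4.55% to 33.3% on far fewer ends. The cDNAs listed in the methods of the study are those of H2a, H2Az, MacroH2a2, H3.3, H1o and H3.1, and H2afy is not among them. Where these reads came from was not tested.

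**Figure D4:**
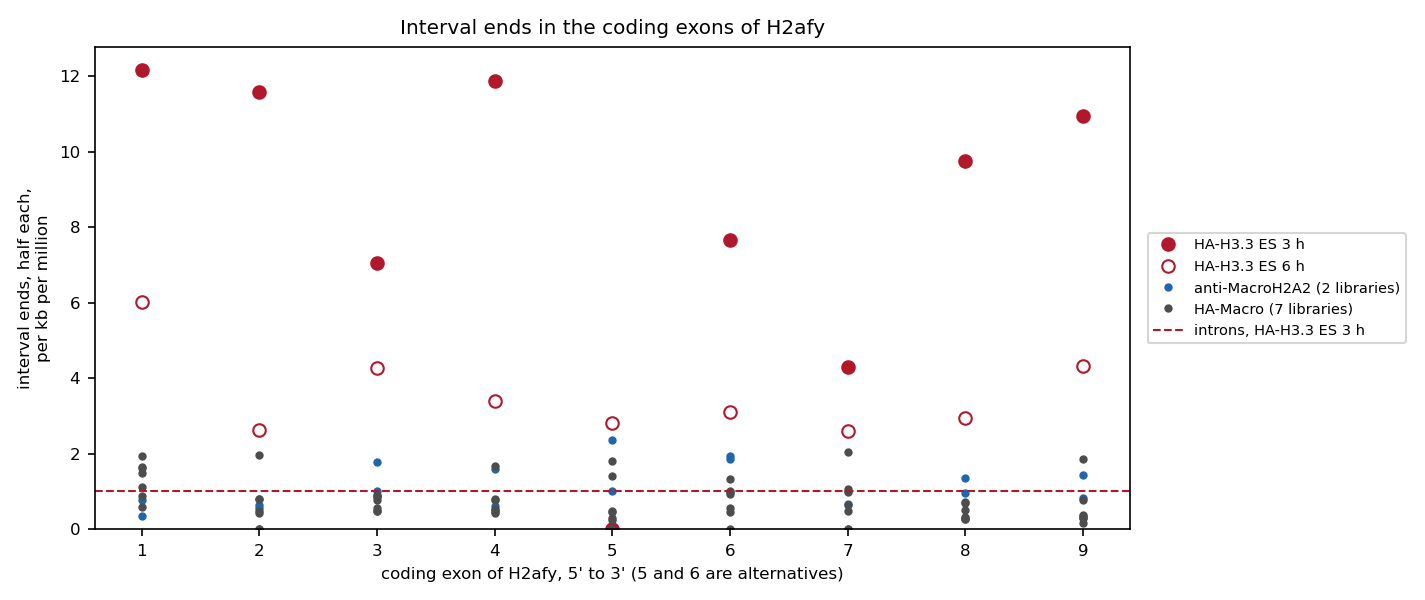
Interval ends in RPM per kb (vertical axis, each end counted as 0.5 intervals) in the 9 coding exons of H2afy (horizontal axis, 5′ to 3′), with HA-H3.3 in red (filled at 3 hours, open at 6 hours), anti-MacroH2A2 in blue and HA-Macro in grey; the dashed line is the intron level of HA-H3.3 at 3 hours. HA-H3.3 at 3 hours lies between 4.31 and 12.2 in every exon but exon 5, which held 0 ends.

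H2afy2, whose cDNA the HA-Macro lines carry, was examined in the same way. By ends its coding exons had 1.14 to 1.99 times the intron density in the 7 HA-Macro libraries, 1.94 with the antibody in ES cells and 2.60 (1.79 to 3.67) in MEFs, and 1.08 and 0.699 in HA-H3.3. The medians over genes with enough ends were 1.39 to 1.78 in the HA-Macro libraries. With the antibody they were 2.01 in ES cells and 1.66 in MEFs, and in HA-H3.3 1.59 and 1.39 at 3 and 6 hours. The far edges of its coding exons held 0% to 20% of the ends in HA-Macro, on 11 to 39 ends per library, where length would give 21.5%. The share was 12% and 17.1% with the antibody in ES cells and MEFs, and 30% and 25% in HA-H3.3 at 3 and 6 hours, on 10 and 12 ends. In the antibody library of MEFs its median over coding exons was 2.71, at rank 120 of 11361 genes, near the value of H2afy in HA-H3.3 at 6 hours, with 35 coding ends but 3 coding midpoints (a midpoint ratio of 0.424). By midpoints the value in HA-Macro ES cells at 12 hours was 1.65 (1.01 to 2.54), from 21 and 487 intervals, against a median of 1.60 over protein-coding genes, and without Dox it was 1.51 (0.714 to 2.82). These 2 intervals overlapped. The cDNA is in the DNA of HA-Macro cells with and without Dox, so this contrast cannot show whether reads came from it. By ends the HA-Macro ratios lay within the range of the HA-H3.3 and antibody libraries, 0.699 to 2.60. Where the reads over H2afy2 came from was not tested.

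For the H3.3 genes the coding exons hold few intervals, and these are uncertain because both genes have processed pseudogenes with which they can share reads. In HA-H3.3 at 6 hours H3f3a and H3f3b together had 1.61 (0.855 to 2.80) times the intron density by midpoints, with 0 midpoints in H3f3a and 14 in H3f3b. The median over protein-coding genes was 1.51. By ends H3f3a had 0.722 and 0.599 at 3 and 6 hours and H3f3b 1.76 and 2.55 (1.54 to 4.12), where HA-Macro ES cells at 3 hours had 2.88 (1.61 to 4.98) in H3f3b. The medians over genes with enough ends were 1.59 and 1.39 in HA-H3.3 and 1.49 in HA-Macro ES cells at 3 hours. The coding sequence of H3f3b begins within 600 bp of its RefSeq start, near the bin that was highest in HA-H3.3 at 6 hours and in HA-Macro ES cells. In HA-H3.3 at 3 hours the highest bin lay upstream of the gene, with 2.02 RPM against 1.55 near the RefSeq start. The gene from which the H3.3 cDNA came is not given in the sources used here.

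Other genes for histone variants, chaperones and deposition factors were taken from a list of 36, of which 33 were in the annotation. In HA-Macro ES cells 25 of the 28 with enough TSS intervals were lower at 12 than at 3 hours (background 54.9%; median log2 ratio -1.26 against -0.68), with Spty2d1 at 0.187 (0.0638 to 0.458), Npm1, the nucleolar histone chaperone, at 0.201 (0.0680 to 0.494) and H2afj at 0.312 (0.162 to 0.571), and so were the introns of all 29 (background 36%; median -1.12 against -0.22). From 6 to 12 hours 10 of 24 were lower at the TSS (background 30.9%) and 3 of 29 in introns (background 3.65%), so that for this list too most calls rested on the 3 hour library. At 3 hours 26 of 28 were higher at the TSS than in uninduced cells, Rbbp4 by the most, at 4.99 (1.95 to 16.3), and at 6 hours 14 of 21, beside backgrounds of 67.6% and 47.8%. In MEFs 4 of 7 were lower at the TSS at 12 hours (background 18.9%) and, of 29 introns, those of Hjurp, the CENP-A chaperone, were higher at 1.51 (1.15 to 2.00; background 3.66%) and those of Npm1 lower at 0.638 (0.377 to 1.09; background 2.99%).

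Between cell types, native MacroH2A2 was lower in MEFs at 11 and higher at 2 of 14 TSSs of the list (background 65.8% lower and 3.63% higher; median -1.06 against -0.91), with Dek at 0.191 (0.0621 to 0.503) and Rbbp7 at 5.35 (1.65 to 27.5), from 28 and 3 intervals. HA-Macro at 12 hours was lower in MEFs at 8 of 16 TSSs (background 38%), with Rbbp4 at 0.262 (0.0756 to 0.740), and in 15 of 29 introns (background 32.4%). HA-H3.3 was higher at 6 than at 3 hours at 15 of 30 TSSs, no more than the background of 55.3% (median 0.59 against 0.66), with Ipo4, the importin for H3 and H4, at 3.79 (1.78 to 9.25). It was higher in 11 of 29 introns (background 16.7%), with Set at 1.85 (1.38 to 2.50).

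Lists of 7 genes that mark ES cells and 7 that mark fibroblasts had few members with enough TSS intervals, too few to check cell type. In HA-H3.3, 6 of 6 ES cell genes and 0 of 2 fibroblast genes were higher at 6 than at 3 hours (background 55.3%). In HA-Macro ES cells 5 of 5 and 1 of 3 were lower at 12 than at 3 hours (background 54.9%), and 1 of 4 and 1 of 3 lower at 12 than at 6 hours (background 30.9%). Native MacroH2A2 was lower in MEFs at 1 of 4 and 3 of 3 (background 65.8%). HA-Macro at 12 hours was higher in MEFs at 3 of 6 ES cell genes (background 17.9%) and lower at 1 of 2 fibroblast genes (background 38%).

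The genes whose TSS levels were most like those of the histone variant genes over the 11 libraries were found by the distance between log2 levels, with 0.5 added. They were 1110003O08Rik (0.66) and Dnajb2 (0.71) for H2afy, Pex13 (0.53) and Tmem106c (0.56) for H2afy2, Fam108b (0.50) and Mtmr12 (0.62) for H3f3a, and Dph2 (0.55) and Tmem116 (0.63) for H3f3b. The median distance to a protein-coding gene was between 2.22 and 2.81.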

How the data were processed

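ChIP-Seq was measured in 11 libraries, 1 per condition, with groups taken from the sample labels. The authors deposited the first and last base of each mapped interval without strand, after alignment to mm9 with Bowtie 1.0 per the submitters' processing notes, so the unit of the deposited columns is a base position and not a signal. The stated extension was 150 bp, while the HA-H3.3 and anti-MacroH2A2 intervals measure 400 bp, and the reason is not given in the sources used here. The 2 replicates behind each anti-MacroH2A2 library cannot be separated, and the cell line and Dox state of those cells are described in more than 1 way (in places as HA-Macro cells), so the labels were followed. No precipitated protein is read as expression, so cell types could not be checked by marker expression.

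Identical intervals were kept once. Midpoints were counted within 600 bp of the TSS (5′ end of the transcript with the longest coding sequence, GENCODE vM1), in introns outside any exon and that window, in coding exons, and in 20 kb on either side, per 1000000 distinct intervals (RPM). Neighbouring genes were not removed from these flanks. Levels have exact Poisson 95% intervals and ratios exact conditional ones. A call needs a 1.5-fold difference and at least 20 intervals over both libraries. The pathway list holds 36 genes, of which at most 3 per comparison are named, those with the largest ratios among those called. Members and lists were chosen with earlier results of these data known. RefSeq starts came from the GRCm38.p6 promoter table by exact match of sequence to mm9, which placed all 9 genes, and the printed sequences were read from mm9. Alternatives covered the window, scaling, minimum, fold, start site, early time point and use of ends or coverage. Scripts used Python 3.11.15, NumPy 2.4.6, SciPy 1.17.1, Matplotlib 3.10.9 and samtools 1.23.1 and were tested on simulated data. Some values of 1 promoter are not reported here.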

Additional observations from a re-analysis of the deposited data

Results flagged for a closer look

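The introns of Cabin1 moved in opposite directions in the 2 cell types between 3 and 12 hours of HA-Macro induction, which is why they are listed here. The TSS, introns, upstream and downstream regions of every member were searched for intervals on opposite sides of 1, and only this case was found. The share of all genes with such a case was not counted. The ratio of 12 to 3 hours was 0.546 (0.505 to 0.590) in ES cells and 1.18 (1.04 to 1.34) in MEFs. Each value rests on 1 library per time and cell type, and the difference was not tested. With 6 hours as the early point the ratios were 1.02 in ES cells and 0.943 in MEFs.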

How the results depend on the processing

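No paired analysis was possible because each condition has 1 library and the labels give no replicate numbers that groups share. The number of called members at the TSS changed by more than 1.5 times as follows. A window of 300 bp either side gave 3 for HA-Macro ES cells at 12 over 3 hours, 0 for MEFs, 2 for anti-MacroH2A2 in MEFs over ES cells and 3 for 3 hours over no Dox. A window of 1000 bp gave 4 in MEFs at 12 over 3 hours (2 higher, H3f3a and H3f3b, and 2 lower, H2afy and Ubn1) and 2 for HA-Macro at 12 hours in MEFs over ES cells. A minimum of 10 intervals gave 5 in the first of these, 3 higher (H3f3a, H3f3b and Cabin1) and 2 lower (H2afy and Ubn1), and 1 in the other, and coverage in place of midpoints gave 0 in the first. A 2-fold call gave 0 in MEFs at 12 over 3 hours and 3 for HA-H3.3. For HA-Macro at 12 hours in MEFs over ES cells, own flanks as the scale gave 1, the gene 5′ end 1 and the RefSeq start 2. In introns, a 2-fold call gave 2 for ES cells at 12 over 3 hours and 1 in each of anti-MacroH2A2, HA-H3.3, HA-Macro at 12 hours in MEFs over ES cells and 3 hours over no Dox, and scaling to own flanks gave 1, 1, 2 and 3 in those 4. With 6 hours in place of 3 hours the introns gave 0 at 12 hours and 1 over no Dox.

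Among values that were called, the following crossed 1. With 300 bp windows H2afy was at 1.04 in ES cells at 12 over 3 hours and H3f3a at 0.891 at 3 hours over no Dox. With own flanks as the scale Daxx was at 0.915 at the TSS in HA-H3.3, and in introns at 1.16 in ES cells at 12 over 3 hours and 0.615 at 3 hours over no Dox, and Cabin1 introns were at 1.00 with anti-MacroH2A2. With 6 hours as the early point Cabin1 was at 1.23 at the TSS and 1.02 in introns and H3f3a at 1.06 in introns in ES cells, and Daxx introns at 1.06 in MEFs. With 6 hours over no Dox H3f3a was at 0.941 and Cabin1 at 0.641 at the TSS, and the introns of H3f3a were at 0.753, of Asf1a at 0.844 and of Ubn1 at 0.918. Of the other alternative values for single members, 913 moved by less than their counting interval and 44 by more. Values that were not called also crossed 1 under several settings. Of these, the reported interval left out 1 for Cabin1 introns in MEFs, from 1.18 to 0.943 with 6 hours as the early point, and for Hira introns with anti-MacroH2A2, from 0.667 to 1.22 with own flanks as the scale. At the TSS, H2afy in HA-H3.3 went from 0.868 to 2.83 at the gene 5′ end and H3f3b for HA-Macro at 12 hours in MEFs over ES cells from 1.05 to 0.445 at the RefSeq start. The cause was not tested in any of these. The H2afy exon ratio in HA-H3.3 was 0.903 and 1.01 at 3 and 6 hours by midpoints, which fall outside the exons by construction, 17.1 and 5.07 against flanks, and 2.66 and 1.34 over whole exons with UTRs.

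Depth limits the TSS values, since many windows held under 20 intervals, and in MEFs 8 of 9 members could not be called between 3 and 12 hours. The spread between cultures was not measured. The settings with 6 hours in place of 3 hours and with other start sites were chosen after seeing the data.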
